A study of Mus musculus with 8 samples.

Results

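Activity-regulated genes are transcribed in neurons within minutes to hours of synaptic input. Calcium entering through NMDA receptors and voltage-gated channels activates kinases, which act on the transcription factors CREB, SRF and MEF2 already bound at these genes. The rapid genes encode mostly transcription factors (Fos, the Egr family, Npas4, the Nr4a family), and others encode regulators that switch the signal off (dual-specificity phosphatases, RGS proteins). Effector genes encode products that act at synapses or are secreted. Some of them, such as Arc and the short form of Homer1, are themselves immediate early genes induced along with Fos and Egr1, so that the division used here is by function and not by time of induction. In cortex and amygdala these transcripts are used as a readout of recent neuronal activity, but bulk libraries do not show which cells they come from.

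The 42 genes described here were matched by symbol among 54532 genes in the table of PTS + RS and RS and among 28229 genes in the table of RGFP109 and NaCl, and all 42 were found in both with the same coordinates. They were divided by role into 20 rapid transcription factors and nuclear regulators, 15 signalling and feedback regulators, and 7 effectors. RNA-seq was performed on 8 libraries from brain of male C57BL/6 mice on Day 21, with 2 libraries in each of 4 groups. The PTS + RS group had photothrombotic stroke, in which a light-activated dye occludes cortical vessels, plus restraint stress, and the RS group had restraint stress alone. In the second experiment all mice carried both stroke and restraint stress and were given either RGFP109 (60 mg/kg subcutaneously, daily for 2 weeks) or the control solution labelled NaCl. RGFP109 inhibits class I histone deacetylases, and the paper describes it as selective for HDAC1 and HDAC3. The labels give cortex for both libraries of PTS + RS and RS and for replicate 1 of RGFP109 and NaCl, and amygdala for replicate 2 of RGFP109 and NaCl. The methods mention pooling and barcoding of samples, without saying whether mice or finished libraries were pooled. Whether a library holds 1 mouse or a pool of mice is therefore not clear, so the p-values measure the spread between these libraries. No library of unstressed mice was analysed here.

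The libraries held 15902013 to 21712033 counts on genes, and all 42 genes passed the filter on low counts in both tables, with at least 15 counts in every library. All 12 neuronal markers listed, among them Rbfox3 and Snap25, were detected in every library. In the RGFP109 and NaCl table, however, the libraries of replicate 1 stood apart from each other. The 10 olfactory bulb markers summed to 1618 CPM (counts scaled to library size, after TMM scaling) in NaCl replicate 1 and to between 30.1 and 43.4 CPM in the other 3 libraries. The 11 cortical markers summed to 704 CPM in NaCl replicate 1 against 1303 to 1443 CPM. Of these sums, Nptx1 made up 144 CPM in NaCl replicate 1 and 441 to 652 CPM in the others. Cux2 (94.4 CPM) was instead highest in NaCl replicate 1, and Bcl11b, Rasgrf2, Lamp5 and Foxp2 were not lowest there. The 10 choroid plexus markers summed to 1531 CPM in RGFP109 replicate 1 against 15.5 to 46.6 CPM. Both libraries of replicate 2 held 1168 and 1302 CPM of the 10 striatal markers against 198 and 130 CPM in replicate 1, while the 10 amygdala markers were at 458 and 457 CPM there against 473 and 1076 CPM. Of the 1076 CPM in NaCl replicate 1, Meis2 made up 628 CPM and Zic1 152 CPM. The amygdala markers Rspo2 (1.99 CPM), Dlk1 (1.93 CPM) and Rxfp1 (12.7 CPM) were instead lowest in that library. The choroid plexus markers varied in the first table too, at 1636 and 47.6 CPM in PTS + RS and 1850 and 3858 CPM in RS. In that table all 12 microglial markers rose with PTS + RS (1631 and 1397 CPM summed against 356 and 323 CPM), and the 12 neuronal markers summed to 6419 and 6877 CPM against 7196 and 6885 CPM. In these bulk libraries, fewer neurons, less RNA per neuron and a larger share of RNA from other cells cannot be told apart.

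Promoter sequence was examined first, since the members share signal-dependent regulation. RefSeq start sites (GRCm38.p6) were found for 33 of the 42 genes; Arc, Egr1, Egr3, Ier2, Klf10, Nptx2, Sik1, Trib1 and Vgf had no entry. The 250 bases before each start were searched on both strands. The palindromic CRE, TGACGTCA, which binds CREB, was present in 4 of the 33 (12.1%), namely Btg2, Dusp1, Plk2 and Scg2, against 1.91% of 20480 promoters of the same length. Its core TGACG, which also lies within the palindrome on both strands, was present in 20 of the 33 (60.6%) against 19.5% of all promoters. By role the core was found in 11 of 16 rapid factors, 7 of 13 feedback regulators and 2 of 4 effectors. The EGR site GCGGGGGCG was present in 4 members, all rapid factors (Fosb, Fosl2, Klf4 and Nr4a1), or 12.1% against 3.11%, and GCGTGGGCG in none, against 0.674%. The pattern TGANTCA, searched for the AP-1 site with any base allowed at N, was in none of the 33, against 6.4%. The CArG box that binds SRF was in Dusp5 only (3.03% against 1.35%), the MEF2 box in Jun only (3.03% against 0.547%), and TATAAA in 6 members (18.2% against 12.2%). These are counts of exact matches to each pattern in a fixed window, and no binding was measured. Variant sites and sites beyond the 250 bases were not counted.

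The windows printed here show the core TGACG (or CGTCA on the other strand), the CRE and the EGR site in capitals, 5′ to 3′ on the gene's strand. They were chosen, after values were seen, to show a member called in the stroke comparison (Nr4a1), its relative Nr4a2, a rapid gene with little difference there (Fos), 2 feedback regulators with the full CRE (Dusp1 and Plk2), and the effector with the most cores (Homer1). The windows are chr15:101266596-101266845 (+) for Nr4a1, chr2:57124004-57124253 (-) for Nr4a2, chr12:85473640-85473889 (+) for Fos, chr17:26508520-26508722 (-) for Dusp1, chr13:110394794-110395043 (+) for Plk2 and chr13:93303507-93303756 (+) for Homer1, on GRCm38.p6. That of Dusp1 ends just before the first base of an annotated exon. The RefSeq start of Nr4a1 lies 12577 bases inside the gene as deposited, and that of Homer1 4122 bases inside.
Nr4a1: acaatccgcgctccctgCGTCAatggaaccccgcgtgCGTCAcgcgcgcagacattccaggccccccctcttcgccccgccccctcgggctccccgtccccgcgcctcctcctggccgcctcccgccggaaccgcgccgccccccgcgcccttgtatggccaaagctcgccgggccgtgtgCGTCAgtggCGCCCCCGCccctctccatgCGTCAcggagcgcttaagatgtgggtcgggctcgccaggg
Nr4a2: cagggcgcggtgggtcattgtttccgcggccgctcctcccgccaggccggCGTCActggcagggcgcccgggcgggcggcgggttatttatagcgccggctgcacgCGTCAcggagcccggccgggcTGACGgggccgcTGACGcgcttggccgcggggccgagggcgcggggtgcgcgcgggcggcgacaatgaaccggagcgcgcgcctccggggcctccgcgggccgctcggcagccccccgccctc
Fos: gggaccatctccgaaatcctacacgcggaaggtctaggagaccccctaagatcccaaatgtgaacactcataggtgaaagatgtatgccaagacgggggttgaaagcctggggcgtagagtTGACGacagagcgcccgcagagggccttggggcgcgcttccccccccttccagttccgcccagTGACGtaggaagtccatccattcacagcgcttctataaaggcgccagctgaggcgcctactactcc
Dusp1: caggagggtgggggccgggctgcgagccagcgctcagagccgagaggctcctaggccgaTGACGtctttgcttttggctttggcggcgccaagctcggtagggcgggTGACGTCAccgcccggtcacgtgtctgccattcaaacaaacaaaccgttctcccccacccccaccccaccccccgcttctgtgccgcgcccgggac
Plk2: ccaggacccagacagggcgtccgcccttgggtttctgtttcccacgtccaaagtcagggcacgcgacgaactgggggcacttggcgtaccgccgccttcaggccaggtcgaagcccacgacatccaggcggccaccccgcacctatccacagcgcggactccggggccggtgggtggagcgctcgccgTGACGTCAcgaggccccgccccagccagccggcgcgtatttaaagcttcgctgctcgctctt
Homer1: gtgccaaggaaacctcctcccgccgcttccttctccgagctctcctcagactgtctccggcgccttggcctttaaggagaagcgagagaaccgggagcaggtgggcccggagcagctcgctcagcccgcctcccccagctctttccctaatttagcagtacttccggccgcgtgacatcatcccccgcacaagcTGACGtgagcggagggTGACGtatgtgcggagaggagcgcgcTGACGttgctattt
Nr4a1 held 4 cores and 1 EGR site, the latter from 60 to 52 bases before the start. Nr4a2 also held 4 cores, and Fos held 2, at 129 and 66 bases before the start. The CRE of Dusp1 began 143 bases and that of Plk2 62 bases before the start, and the 3 cores of Homer1 began 56, 40 and 14 bases before it.

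The first comparison asked how cortex after stroke plus restraint stress differed from cortex after restraint stress alone. The paper describes the sequenced tissue as damaged cortex, and in a figure legend as near the damaged cortex. The RS mice had no stroke. Activity-regulated genes were mostly lower in the PTS + RS group. Of the 42 genes, 35 had a log2 fold change below 0 (83.3% against 50.3% of the 17581 genes tested) and 7 above. The median was -0.30 against -0.0015 over all tested genes. Egr1, Egr3 and Nr4a1 fell (adjusted p under 0.05 from edgeR's quasi-likelihood test), that is 7.14% of the members, where 0.586% of all tested genes were called lower. None of the 42 was called higher, where 2.96% of all tested genes were. At an unadjusted p under 0.05, 21 members were lower (50% against 7.55% of all tested genes) and 1, Rgs2, was higher (2.38% against 10.3%). In 25 members both PTS + RS libraries lay below both RS libraries (59.5% against 24.5% of all tested genes), and in 2 they lay above (4.76% against 25.7%). Together the 42 genes took 0.186% and 0.201% of the counts in the PTS + RS libraries and 0.246% and 0.251% in the RS libraries.

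**Figure D1:**
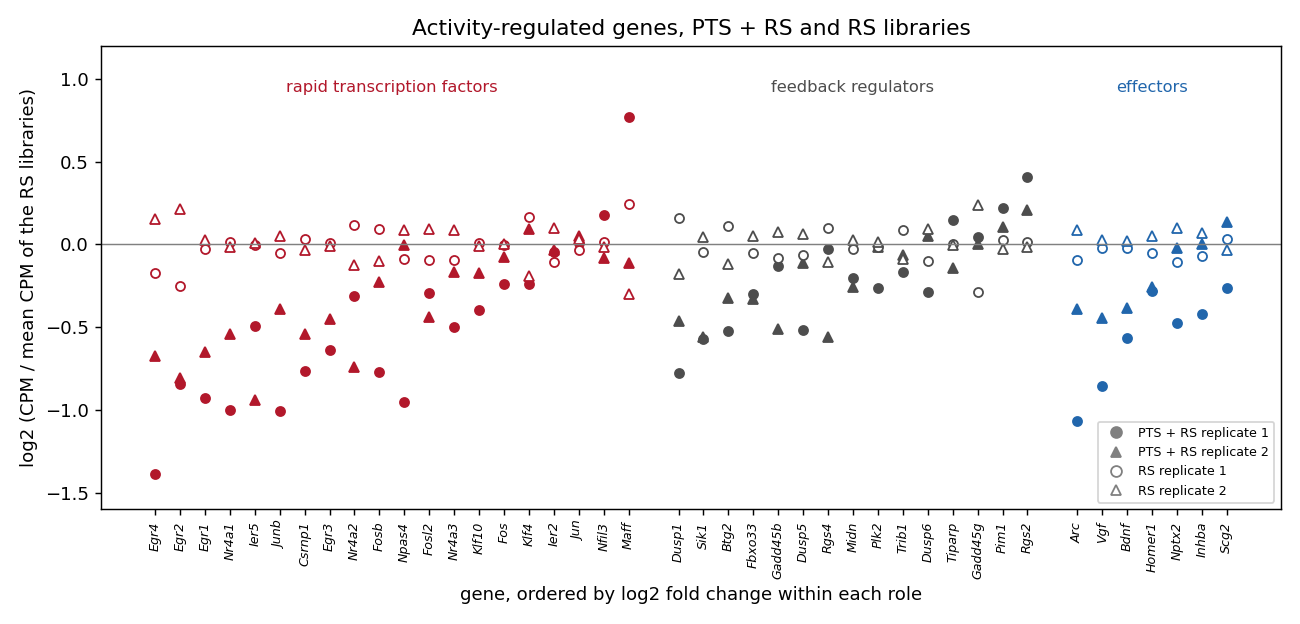
Level of each of the 42 genes in the 4 libraries of PTS + RS and RS, as log2 of CPM over the mean CPM of the RS libraries (vertical axis), with genes grouped by role and ordered by fold change (horizontal axis). Filled symbols are PTS + RS and open symbols RS, circles replicate 1 and triangles replicate 2; the filled symbols of Egr4, Egr2, Egr1 and Nr4a1 lie below both open ones, and those of Tiparp lie on either side of them.

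The Egr family of zinc-finger transcription factors, which bind GC-rich promoters, had 4 members below 0, of which 2 were called. Egr1 (ENSMUSG00000038418) was at 72.3 and 87.6 CPM in the PTS + RS libraries and at 134.8 and 140.1 CPM in the RS libraries, and the groups did not overlap. The means were 79.9 ± 10.8 and 137.5 ± 3.81 CPM (SD, n = 2), a 1.72-fold lower level (log2 fold change -0.78, SE 0.103, adjusted p = 0.0094 by edgeR). Egr3 (ENSMUSG00000033730, chromosome 14 from 70077203 to 70082614) was at 71.1 and 80.7 CPM against 111.1 and 109.9 CPM, again with no overlap. Its level was 1.46-fold lower (log2 fold change -0.54, SE 0.087, adjusted p = 0.021 by edgeR). Egr4 had the largest difference of all 42 genes, 12.8 and 20.9 CPM against 29.6 and 37.2 CPM, but its PTS + RS libraries differed from each other as well, and its log2 fold change of -0.99 (SE 0.230) did not pass (adjusted p = 0.071, edgeR). Egr2, the least expressed of the family, was at 1.58 and 1.62 CPM against 2.37 and 3.28 CPM (log2 fold change -0.82, adjusted p = 0.24 by edgeR), from 27 counts in each PTS + RS library.

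The Nr4a family encodes orphan nuclear receptors. Nr4a1 (ENSMUSG00000023034, chromosome 15 from 101254269 to 101274795), whose promoter window is printed above, fell 1.69-fold. Its libraries were at 40.7 and 56.1 CPM against 82.4 and 80.6 CPM (log2 fold change -0.75, SE 0.144, adjusted p = 0.040 by edgeR). Nr4a2 was at 57.3 and 42.4 CPM against 76.9 and 65.2 CPM, and Nr4a3 at 64.1 and 80.9 CPM against 85.2 and 96.4 CPM. The groups did not overlap in either relative, and neither gene passed (adjusted p = 0.14 and 0.24, edgeR).

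Among the AP-1 genes, whose products bind DNA as dimers, the members differed from each other. Junb was at 28.2 and 43.1 CPM against 54.6 and 58.5 CPM (log2 fold change -0.67, adjusted p = 0.11 by edgeR). Junb overlaps Prdx2 on the opposite strand, which had 9897 counts in the 4 libraries against 3121 for Junb, and whether the counting used strand is not given in the sources used here. Jun was at 116.7 and 119.9 CPM against 113.3 and 118.6 CPM, so that the groups overlapped (log2 fold change 0.03, SE 0.073). Fos was at 9.86 and 11.1 CPM against 11.6 and 11.7 CPM (log2 fold change -0.16, SE 0.155), and Fosb at 5.90 and 8.62 CPM against 10.8 and 9.40 CPM (-0.48, SE 0.223). Fosl2 had a log2 fold change of -0.36 with no overlap between the groups.

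**Figure D2:**
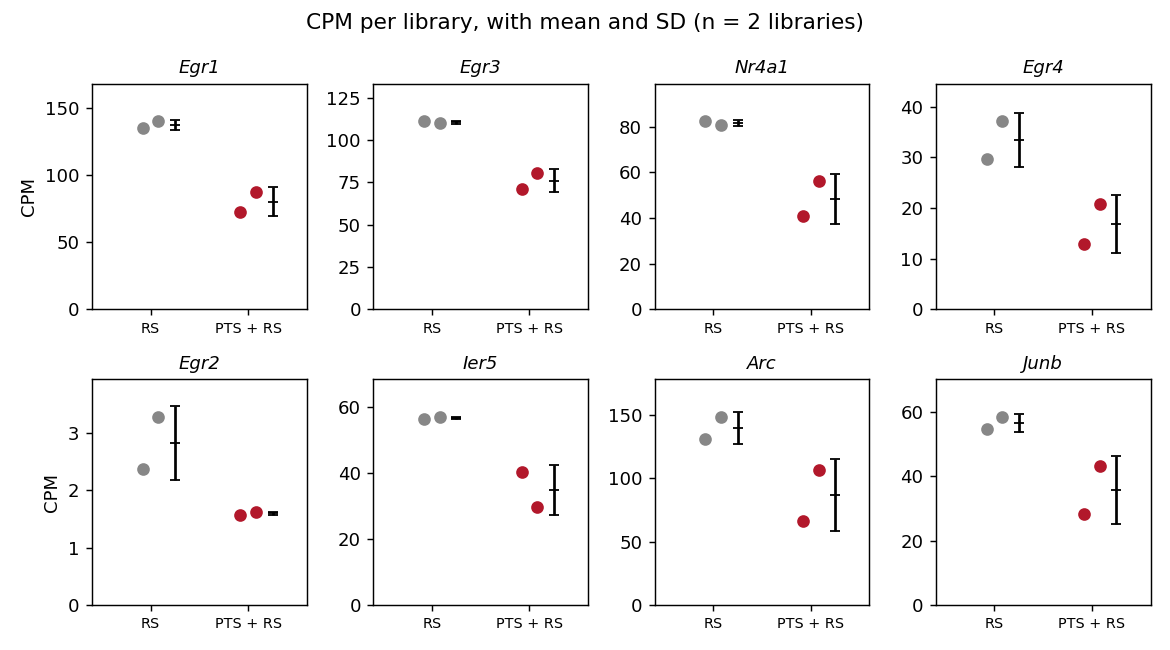
CPM (vertical axis, from 0) of the 8 members named for the stroke comparison in each RS library (grey) and each PTS + RS library (red), with the mean and SD of the 2 libraries in black. In all 8 genes both red points lie below both grey points, and for Egr1 they lie at 72.3 and 87.6 CPM against 134.8 and 140.1 CPM.

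Of the remaining rapid genes, Ier5, a nuclear regulator, lay just outside the threshold. It was at 40.3 and 29.6 CPM against 56.6 and 57.1 CPM (log2 fold change -0.70, SE 0.145, adjusted p = 0.0504 by edgeR). Csrnp1, which encodes a nuclear protein, had 8.99 and 10.5 CPM against 15.6 and 14.9 CPM (-0.65, adjusted p = 0.076 by edgeR), and shares sequence on the same strand with Cx3cr1, a microglial receptor gene whose log2 fold change was 1.79. Npas4, a factor induced by calcium alone, was at 6.89 and 13.3 CPM against 12.5 and 14.1 CPM, so that 1 of the PTS + RS libraries lay within the RS range (log2 fold change -0.40, SE 0.289). Klf10 had a log2 fold change of -0.28 with no overlap. Klf4, Ier2, Nfil3 and Maff lay between -0.07 and 0.39 with overlapping groups, and Maff had only 15 to 34 counts.

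No feedback regulator passed the test. Dusp1, a nuclear phosphatase that inactivates MAP kinases, was at 13.5 and 16.8 CPM against 25.8 and 20.4 CPM (log2 fold change -0.61, SE 0.171, adjusted p = 0.12 by edgeR). Sik1, a salt-inducible kinase that keeps the CREB coactivators out of the nucleus, was at 9.92 and 9.99 CPM against 14.3 and 15.2 CPM (-0.57, adjusted p = 0.093 by edgeR). Both showed separate groups, as did Btg2, Fbxo33, Midn, Dusp5 and Gadd45b, with log2 fold changes from -0.42 to -0.23. In contrast, Rgs2, which shortens signalling through G proteins of the Gq class, was at 36.8 and 32.1 CPM against 28.0 and 27.5 CPM (log2 fold change 0.31, SE 0.111, adjusted p = 0.21 by edgeR), and Pim1 was at 2.39 and 2.21 CPM against 2.10 and 2.02 CPM. The other 6 regulators, Dusp6, Plk2, Rgs4, Trib1, Gadd45g and Tiparp, overlapped between the groups, at -0.27 to 0.03.

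All 7 effectors had a log2 fold change below 0, and none passed. Vgf, which encodes a secretory granule protein and had the highest FPKM (read count scaled to gene length and library size) of the 42 genes in the RS group, was at 166.9 and 221.8 CPM against 296.4 and 306.6 CPM (log2 fold change -0.63, SE 0.131, adjusted p = 0.0503 by edgeR). Arc, a postsynaptic protein that controls AMPA receptor uptake, was at 66.6 and 106.6 CPM against 130.8 and 148.5 CPM (-0.69, SE 0.198, adjusted p = 0.13 by edgeR). Bdnf, a neurotrophin, was at 33.3 and 37.6 CPM against 48.4 and 49.9 CPM (-0.47, SE 0.101, adjusted p = 0.056 by edgeR). These groups did not overlap. Homer1, a postsynaptic scaffold, was at 108.1 and 110.1 CPM against 126.6 and 136.4 CPM (-0.27, SE 0.076), and counts per gene do not separate its short activity-induced form from the long one. Nptx2, a pentraxin that clusters AMPA receptors, Inhba, a subunit of activin, and Scg2, a granin, overlapped between the groups, at -0.23, -0.19 and -0.05. As with Junb, a gene lies on the opposite strand of Inhba, namely B230303A05Rik. It had 504 counts in the 4 libraries against 794 for Inhba.

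By role, the median log2 fold change was -0.44 in the rapid factors (17 of 20 below 0, 3 called), -0.23 in the feedback regulators (11 of 15 below 0) and -0.27 in the effectors (7 of 7 below 0). The summed level of the rapid factors was 640 and 706 CPM against 914 and 941 CPM, that of the feedback regulators 608 and 598 CPM against 692 and 685 CPM, and that of the effectors 579 and 747 CPM against 855 and 892 CPM. The ranges of single genes overlapped between roles, from -0.99 to 0.39 in the rapid factors and from -0.69 to -0.05 in the effectors, and no test of the difference between roles was made. Of the 12 neuronal markers 9 were below 0, with a median of -0.15. Relative to that median, the medians were -0.29 in the rapid factors, -0.08 in the feedback regulators and -0.12 in the effectors. The part of cell composition in these differences was not tested.

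Other genes of the pathway were read from 2 lists of 25. The upstream list (CREB, SRF and MEF2 factors, coactivators, kinases and channels) had a median log2 fold change of 0.05, with 0 called by edgeR, and at an unadjusted p under 0.05 Mapk3 (0.29) and Ntrk2 (0.27) were higher and 0 lower. Mef2c had the largest value, 265.5 and 126.9 CPM against 174.2 and 144.6 CPM (0.30, SE 0.298), and Srf the lowest, 42.6 and 56.3 CPM against 54.0 and 65.5 CPM (-0.27, SE 0.153). In the list of further activity genes the median was -0.17, and 1 gene was called in each direction. Atf3, a factor induced by axonal and cellular injury, rose from 0.662 and 1.33 CPM to 4.49 and 3.41 CPM (log2 fold change 2.00, SE 0.393, adjusted p = 0.044 by edgeR). Jund, an AP-1 gene, fell from 56.7 and 56.2 CPM to 40.1 and 40.3 CPM (-0.49, SE 0.084, adjusted p = 0.027 by edgeR).

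The number of members called lower depended on the libraries. It was 14 without PTS + RS replicate 1 (33.3% of members against 4.13% of all tested genes), and 20 without PTS + RS replicate 2 (47.6% against 6.96%), where Rgs2 was called higher. It was 2 without RS replicate 1 (Egr1 and Egr4, 4.76% against 0.376%) and 2 without RS replicate 2 (Egr1 and Nr4a1, 4.76% against 0.174%). The number of all genes called lower moved as well, from 103 with all libraries to 753, 1278, 69 and 32 in these fits. Egr1 passed in all 4 fits. Each such fit assumes that the lone library varies like the group that kept both. With the replicate block 10 members were called lower (23.8% against 1.3% of all tested genes), with DESeq2 7 (16.7% against 0.941%) and without the filter on counts 15 (35.7% against 2.38%).

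The second comparison asked what RGFP109 changed in mice with stroke and restraint stress. No activity-regulated gene passed the test, and 0% of the 17565 genes tested did (edgeR). At an unadjusted p under 0.05, Nr4a2 was higher and Scg2 lower (2.38% of members each), against 0.501% and 0.672% of all tested genes. In 2 members both RGFP109 libraries lay above both NaCl libraries (4.76% against 12.8%) and in 8 below (19% against 13.8%). The medians were -0.21 over the 42 genes, -0.34 in the rapid factors, -0.08 in the feedback regulators and -0.19 in the effectors, against -0.02 over all tested genes. The common biological coefficient of variation was 32.1%, against 11.4% in the first table. With the replicate number as a replicate block, 0 members and 0 of all tested genes were called as well.

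The 8 members with the largest difference are given by library. Inhba was at 4.57 and 13.2 CPM with RGFP109 and at 40.8 and 14.8 CPM with NaCl (log2 fold change -1.64, SE 0.703). Npas4 was at 18.5 and 30.1 CPM against 83.2 and 15.7 CPM (-1.02, SE 0.793), and the groups overlapped. Scg2 was at 140.3 and 192.7 CPM against 433.0 and 240.8 CPM (-1.02, SE 0.354, unadjusted p = 0.036 by edgeR). For each of these genes NaCl replicate 1 was the highest of the 4 libraries. Nr4a2 was at 114.0 and 68.7 CPM against 47.2 and 53.3 CPM (0.86, SE 0.287, unadjusted p = 0.031 by edgeR), and Nr4a3 at 100.5 and 48.8 CPM against 32.9 and 47.8 CPM (0.89, SE 0.407). Here RGFP109 replicate 1 was the highest. Dusp5 was at 20.5 and 16.1 CPM against 43.1 and 22.6 CPM (-0.84), Nptx2 at 15.4 and 51.4 CPM against 52.2 and 65.1 CPM (-0.81), and Maff at 1.14 and 2.29 CPM against 1.59 and 5.87 CPM (-1.11). Of these, Maff differed most in replicate 2. Of the Egr genes called in the stroke comparison, Egr1 was at 160.6 and 412.6 CPM against 427.0 and 367.8 CPM, and Egr3 at 117.5 and 200.2 CPM against 114.1 and 230.5 CPM.

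Because the tissue label changes with the replicate number, the ratio of RGFP109 to NaCl was also taken within each number, as a value with no test. In replicate 1 the median log2 ratio was -0.40 and the median size 0.80, with 18 of 42 members (42.9%) over 1 in size, against 15.5% of all tested genes. In replicate 2 the median was 0.01 and the median size 0.17, with 1 of 42 over 1 (Maff, 2.38% against 2.84% of all tested genes). The sign was opposite in 22 members, 6 were higher in both numbers and 14 lower in both. These signs were not counted over all tested genes. Fos was at -2.00 in replicate 1 and 0.44 in replicate 2, Egr2 at -1.98 and 0.39, and Bdnf at 1.42 and -0.06. By role the medians were -0.42 and -0.02 in the rapid factors, -0.36 and 0.08 in the feedback regulators, and -0.88 and -0.16 in the effectors. NaCl replicate 1, with its olfactory bulb markers, was the highest library in 16 of the 42 genes, and RGFP109 replicate 1 the lowest in 25. This order was not counted over all tested genes either. The part of the olfactory bulb markers in the ratios of replicate 1 was not tested.

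**Figure D3:**
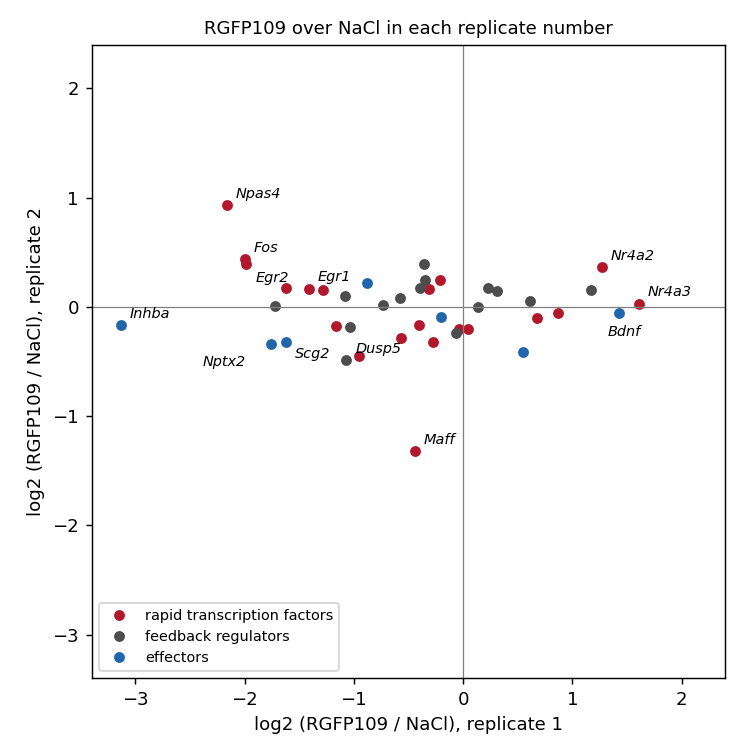
Log2 ratio of RGFP109 to NaCl of each of the 42 genes in replicate 1 (horizontal axis) and in replicate 2 (vertical axis), coloured by role. The points spread from -3.13 to 1.61 along replicate 1, and all but Npas4 and Maff lie between -0.49 and 0.44 along replicate 2.

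In the same libraries, the pathway lists had medians of 0.01 (upstream) and -0.11 (further activity genes), with 0 called by edgeR and 0 at an unadjusted p under 0.05. The largest values were those of Atf3, 0.444 and 2.20 CPM with RGFP109 against 2.96 and 4.24 CPM (log2 fold change -1.42, SE 0.783), and Crh, the corticotropin-releasing hormone gene, 1.84 and 5.09 CPM against 10.1 and 7.56 CPM (-1.34, SE 0.551). Neither pair of groups overlapped.

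The third comparison set replicate 2, labelled amygdala, against replicate 1, labelled cortex, with treatment as a covariate. Replicate number and tissue label cannot be told apart. Activity-regulated genes were mostly higher in replicate 2, with 30 of 42 above 0. Below 0 lay 28.6% of the members against 51.5% of all tested genes. The median log2 difference was 0.48 against -0.01 over all tested genes. None of the members passed the test, and 0% of all tested genes did (edgeR). At an unadjusted p under 0.05, 11 members were higher (26.2% against 6.09% of all tested genes) and 1, Btg2, lower (2.38% against 3.06%). In 18 members both libraries of replicate 2 lay above both of replicate 1 (42.9% against 21.6%), and in 2 below (4.76% against 22.4%). The medians were 0.75 in the effectors, 0.54 in the feedback regulators and 0.21 in the rapid factors.

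Rgs4, a GTPase-activating protein for neuronal G proteins, had the largest difference. It was at 400.7 and 361.8 CPM in replicate 2 (RGFP109 and NaCl) and at 140.4 and 113.3 CPM in replicate 1, 3.02-fold higher (log2 difference 1.59, SE 0.205, adjusted p = 0.31 by edgeR). Homer1, whose 3 cores were printed above, was at 307.9 and 327.9 CPM against 104.7 and 120.3 CPM, 2.83-fold higher (1.50, SE 0.199, adjusted p = 0.31 by edgeR). In both genes the libraries of a replicate number were close to each other and far from the other number. Ier5 was also separate, with 88.2 and 110.4 CPM against 42.8 and 51.7 CPM (1.07), Klf10 with 39.5 and 33.3 CPM against 18.1 and 20.9 CPM (0.90), and Egr3 with 200.2 and 230.5 CPM against 117.5 and 114.1 CPM (0.89). Maff (1.46) and Pim1 (0.94) were also separate but rested on 18 to 114 counts. In Egr2 (1.10) and Nptx2 (1.02), NaCl replicate 1 lay within the range of replicate 2, at 13.9 CPM against 17.4 and 13.3 CPM for Egr2 and at 52.2 CPM against 51.4 and 65.1 CPM for Nptx2. Btg2 went the other way, at 23.8 and 18.1 CPM against 30.7 and 39.3 CPM (-0.74). The 10 striatal markers were all at an unadjusted p under 0.05 and higher in replicate 2, with a median of 3.22, as were 9 of the 12 microglial markers (median 1.14), and their part in the members' differences was not tested.

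**Figure D4:**
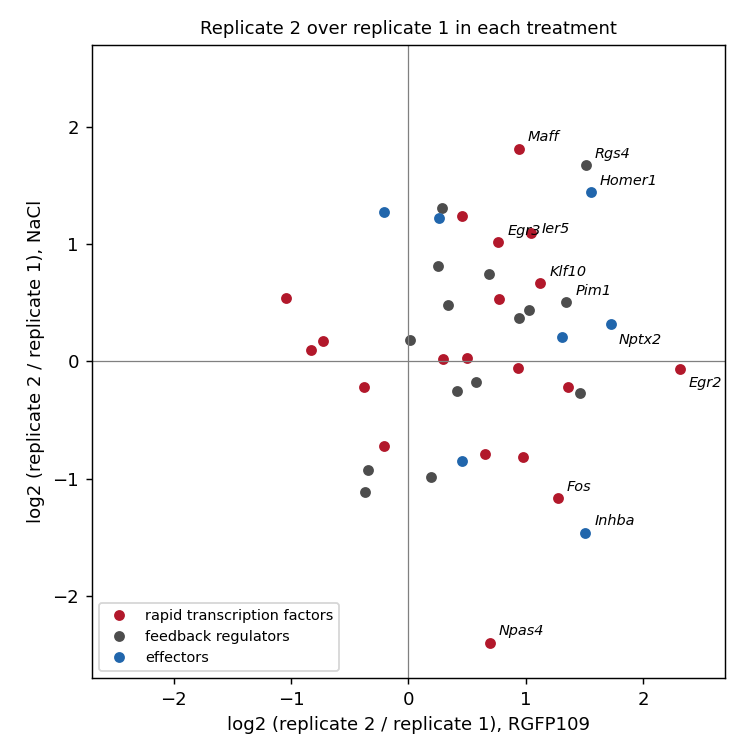
Log2 ratio of replicate 2 to replicate 1 of each of the 42 genes within RGFP109 (horizontal axis) and within NaCl (vertical axis), coloured by role. Rgs4 and Homer1 lie at about the same height in both treatments (1.51 and 1.67, and 1.56 and 1.45), while Npas4, Inhba and Fos are above 0 within RGFP109 and below 0 within NaCl.

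Within RGFP109 the median log2 ratio of replicate 2 to replicate 1 was 0.67, and within NaCl 0.18. The sign was positive in both treatments in 21 members, negative in both in 4 and opposite in 17. Signs over all tested genes were not counted. Npas4 was at 0.70 within RGFP109 and -2.40 within NaCl, Inhba at 1.51 and -1.46, and Fos at 1.27 and -1.16. The number of members called depended on the libraries of replicate 1 (edgeR, no treatment term). Without RGFP109 replicate 1 it was 16 higher (38.1% of members against 15.1% of all tested genes) and 10 lower (23.8% against 13.6%). Without NaCl replicate 1 it was 25 higher (59.5% against 8.27%) and 4 lower (9.52% against 5.51%). Calls thus rose over all genes in both fits, and 0 members and 0 of all genes were called without RGFP109 replicate 2 or without NaCl replicate 2. In the pathway lists 0 genes were called by edgeR. The largest differences were those of Mylk3, 3.65 and 2.72 CPM against 1.01 and 0.0569 CPM (2.94), and Penk, an opioid peptide precursor of striatal neurons, 212.3 and 224.3 CPM against 16.3 and 127.5 CPM (2.24). Mylk3 rested on only 16 counts in RGFP109 replicate 1 and 1 in NaCl replicate 1.

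Levels per length were compared by FPKM as deposited. In the RS group the order began with Vgf (99.2 and 102.7), Scg2 (80.8 and 77.2), Rgs4 (55.7 and 48.3), Arc (42.6 and 48.4), Plk2 (40.3 and 41.1) and Jun (35.3 and 37.0). Vgf and Scg2 were separate from the genes that followed. Rgs4 and Arc overlapped, and Arc, Plk2 and Jun followed each other without overlap. Egr1, the highest of the Egr family, was at 29.9 and 31.1 FPKM, and the lowest members were Maff (0.529 and 0.363), Pim1 (0.790 and 0.762) and Egr2 (0.694 and 0.962). Among the effectors the level ranged from 101 FPKM on average for Vgf to 1.95 for Inhba.

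The NaCl group also consisted of mice with stroke and restraint stress, but is in a table of its own, normalized separately, so that its levels are given beside those of the PTS + RS group with no test. Its tissue differs too: NaCl replicate 2 is labelled amygdala and held striatal markers, and NaCl replicate 1 held 1618 CPM of olfactory bulb markers, while both PTS + RS libraries are labelled cortex. Egr1 was at 94.1 and 81.7 FPKM with NaCl and at 16.0 and 19.4 FPKM in the PTS + RS group. Fos was at 31.7 and 14.2 FPKM with NaCl and at 4.15 and 4.68 FPKM in PTS + RS, and Egr2 at 4.04 and 3.89 and at 0.459 and 0.473. Jun was at 21.0 and 22.7 FPKM with NaCl and at 36.3 and 37.4 FPKM in PTS + RS.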

How the data were processed

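The authors aligned reads to GRCm38 with STAR 2.4.0 and counted reads per gene with HTSeq 0.6.1, as given in the paper's methods and the submitters' processing notes. The deposited counts are whole reads per gene and library without normalization, and the deposited FPKM values are those counts divided by gene length and by 1 factor per library; gene lengths and coordinates are the authors' as deposited. The labels and the paper name different library kits, and the strand setting of the counting is not given in the sources used here. The authors also deposited group means, log2 fold changes and p-values of their own comparisons, which were not used, and 8 per-library columns of normalized signal were not used either.

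The 42 genes and all lists were chosen with earlier results of these data known, so a list has no p-value. Counts were filtered with filterByExpr (minimum count 10), normalized by TMM and compared by the quasi-likelihood test of edgeR 4.0.16 (R 4.3.3) with Benjamini-Hochberg adjustment over 17581 or 17565 genes. A gene was called at an adjusted p under 0.05. The SE is the log2 fold change divided by the square root of F, and a prior count of 2 was added before log2 ratios of 1 library to another. The third comparison had treatment as a covariate, and the first and second had none. DESeq2 1.42.0 and limma 3.58.1 gave alternatives, while the promoter search and the figures were made in Python 3.11.15 (pandas 2.3.3, matplotlib 3.10.9). The procedure was tested on simulated data.

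Values were named for members called or, where fewer than 8 were called, also for those with the largest log2 fold change up to 8; of the 2 pathway lists, called genes or the largest differences. Other members shown beside them were chosen after their values were seen. Log CPM of the 2 replicates correlated at 0.982 in PTS + RS, 0.990 in RS, 0.966 with RGFP109 and 0.943 with NaCl across genes, which are not independent replicates.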

Additional observations from a re-analysis of the deposited data

Results flagged for a closer look

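Npas4 differed in direction between the replicate numbers. Its log2 ratio of RGFP109 to NaCl was -2.16 in replicate 1 (18.5 against 83.2 CPM) and 0.93 in replicate 2 (30.1 against 15.7 CPM). It was the only member with a ratio of at least 0.5 in size in both numbers and of opposite sign, and the difference was not tested. In replicate 1 the olfactory bulb markers stood at 43.4 CPM with RGFP109 and at 1618 CPM with NaCl, and their part in this difference was not tested.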

How the results depend on the processing

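For PTS + RS against RS, members called lower numbered 3 with edgeR (of 103 genes called lower in all) and 7 with DESeq2 (of 168), 15 without the filter on counts (of 716), 0 with a fold limit of 1 on the log2 scale (of 16), and 10 with the replicate number as a replicate block (of 228). Deviations of same-numbered libraries correlated at 0.04 in this table, where the samples share only a number, and at 0.30 in the second, where the same number also shares a tissue label. Without 1 library the number was 2 to 20 lower (of 32 to 1278 genes in all) and 0 to 1 higher, and the median was -0.50 to -0.31 in the rapid factors, -0.22 to -0.15 in the feedback regulators and -0.47 to -0.22 in the effectors. Egr3 did not pass without RS replicate 1 (adjusted p = 0.092) or RS replicate 2 (0.080), nor Nr4a1 without RS replicate 1 (0.056; edgeR). Egr1, Egr3 and Nr4a1 passed with DESeq2, limma-voom, RLE size factors, no filter and the block, and none passed the fold limit.

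For RGFP109 against NaCl, 0 members and 0 of all tested genes were called by edgeR or limma-voom. The same held without the filter, with the fold limit and with the replicate block. With DESeq2 0 members were called, where 1 of all 28229 tested genes was called lower and 0 higher. Without 1 library the median was -0.64 to 0.050 over the 42 genes, -0.67 to 0.023 in the rapid factors, -0.58 to 0.043 in the feedback regulators and -1.10 to 0.076 in the effectors.

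For replicate 2 against replicate 1, DESeq2 and the fit without the filter called 2 members higher, Rgs4 and Homer1 (of 155 and 187 genes in all). Leaving out a library beside the treatment term leaves no residual degree of freedom, so these fits, chosen after seeing the data, have no treatment term. They called 16 higher (of 2831 genes in all) and 10 lower (of 2552) without RGFP109 replicate 1, 25 higher (of 1540) and 4 lower (of 1025) without NaCl replicate 1, and 0 otherwise, with medians of 0.16 to 0.60 over the 42 genes, 0.09 to 0.73 in the rapid factors, 0.39 to 0.42 in the feedback regulators and 0.33 to 1.21 in the effectors. Without RGFP109 replicate 1, Fos (-0.92), Fosb (-0.72) and Nr4a3 (0.56) changed sign and passed, and without NaCl replicate 1 so did Nr4a1 (0.59), Inhba (1.62) and Scg2 (0.64). The cause of these changes was not tested.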
